A study of Mus musculus with 16 samples.

Results

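The genes described here present peptides to T cells in the mouse: the MHC class I and class II chains, encoded by the H2 genes, with the peptide-loading machinery, its regulators and the immunoproteasome. They were taken by gene symbol from the count table, which held all 34 among its 19449 genes, and all 34 passed the filter on low counts that left 16269 genes for testing. They are 11 class I heavy chains, B2m as the light chain they share, 9 genes of class I loading and regulation, 5 immunoproteasome genes, 3 class II chains and 5 genes of class II machinery. Of the 34, 21 lie on chromosome 17 within 3.36 Mb.

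RNA was sequenced from the hippocampus of 3-month-old mice in 16 libraries, 4 in each group: Tspo knockout injected with lipopolysaccharide (LPS, a component of bacterial outer membranes that provokes inflammation), Tspo knockout injected with PBS (phosphate-buffered saline), wild type injected with LPS and wild type injected with PBS. Tspo encodes the translocator protein of the outer mitochondrial membrane. The labels state no strain, LPS dose, interval after injection or way in which the knockout was made, and nothing says whether replicates are separate animals, so each p-value measures the spread between these libraries. In bulk tissue, fewer cells of a type and less RNA per cell cannot be told apart.

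MHC class I molecules sit on nearly all nucleated cells and show peptides cut by the proteasome, pumped into the endoplasmic reticulum by the TAP transporter and fitted onto a heavy chain paired with beta-2 microglobulin. Interferons raise this pathway and replace the catalytic proteasome subunits by the inducible subunits of the immunoproteasome, while Nlrc5 is the transactivator of the class I genes. Class II molecules are held mainly by professional antigen-presenting cells, carry peptides made in the lysosome and are controlled by a transactivator of their own, Ciita, and in the brain they are known chiefly from border macrophages and activated microglia.

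Libraries that stood apart come before the results. Tspo, which checks the genotype labels, had 0.486, 0.366, 0.274 and 0.209 CPM (counts per 1000000 of the scaled library size; replicates 1 to 4 in order here and in all lists of 4 values) in knockout LPS and 2.33, 0.152, 0.280 and 0.470 CPM in knockout PBS. It had 2.63, 11.9, 9.40 and 10.1 CPM in wild-type LPS and 2.52, 2.59, 2.06 and 5.17 CPM in wild-type PBS. The library labelled knockout PBS replicate 1 lay inside the wild-type PBS range and so went against its label. Tspo was lower in knockout than in wild type under LPS (log2 fold change -4.64 ± 0.73, SE; edgeR adjusted p = 0.00308; exact two-sided permutation p = 0.0286, the smallest that 4 against 4 libraries can give). Of the 34 genes, the library labelled wild-type LPS replicate 1 lay inside the wild-type PBS range in 19, above it in 7 and below it in 8, whereas replicates 2, 3 and 4 lay above that range in 24, 23 and 24 genes. Counts of calls in wild-type LPS are therefore given with and without replicate 1. The counts inside and outside that range were not made over all genes tested, so they describe only these 34 genes. Replicate 1 was singled out by the values of these same genes. Fold changes, p-values and calls without it show its weight in the results and are not separate support. Codes of unstated meaning in the titles join wild-type LPS replicate 1 with wild-type PBS replicate 4, and wild-type LPS replicates 2, 3 and 4 with knockout PBS replicate 4, and no code is shared by both treatments in the knockout or by both genotypes under 1 treatment, so code and group cannot be told apart there. Wild-type PBS replicates 2 and 3 were closer to each other (mean chi-square per gene 3.93) than any other pair of a group (13.0 or more), though further apart than sampling noise, and were kept as 2 libraries; summed to 1, they left 15 of the 34 genes higher in wild-type LPS, against 19. Library totals ran from 30198619 to 50009041 counts.

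Neuronal markers were present in all libraries (the 6 genes summed to 616 to 759, 732 to 888, 648 to 851 and 597 to 877 CPM in knockout LPS, knockout PBS, wild-type LPS and wild-type PBS). The 6 microglial markers summed to 252 to 314, 259.9 to 291, 236 to 335 and 235 to 285 CPM in the same order. Of these 6, P2ry12 alone passed: it was lower in wild-type LPS than in wild-type PBS (-1.35 ± 0.33, adjusted p = 0.0217) and higher in knockout than in wild type under LPS (1.47 ± 0.33, adjusted p = 0.0133).

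The start regions of 5 genes are shown because they set class I beside class II: the light chain and 2 heavy chains whose RNA was higher after LPS, and 2 class II chains whose RNA did not pass the test. Each is the RefSeq window from 250 bases before to 50 bases after the transcript start on GRCm38.p6, read 5′ to 3′ on the gene's strand. Capitals mark matches, on either strand, to the core of the interferon-stimulated response element (GAAA, then 2 bases of any kind, then GAAA), an NF-kappaB pattern (GGG, 2 bases of any kind, TT, 1 of any kind, CC), the Y box (CCAAT) and the X2 box (TGACGC).
B2m, chr2:122147437-122147736, plus strand: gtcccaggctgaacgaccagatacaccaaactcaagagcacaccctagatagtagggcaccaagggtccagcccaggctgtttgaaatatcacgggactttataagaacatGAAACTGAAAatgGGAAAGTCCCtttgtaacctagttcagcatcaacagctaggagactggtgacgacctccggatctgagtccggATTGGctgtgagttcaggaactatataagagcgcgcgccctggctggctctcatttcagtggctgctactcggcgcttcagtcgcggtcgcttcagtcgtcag
H2-K1, chr17:34000284-34000583, minus strand: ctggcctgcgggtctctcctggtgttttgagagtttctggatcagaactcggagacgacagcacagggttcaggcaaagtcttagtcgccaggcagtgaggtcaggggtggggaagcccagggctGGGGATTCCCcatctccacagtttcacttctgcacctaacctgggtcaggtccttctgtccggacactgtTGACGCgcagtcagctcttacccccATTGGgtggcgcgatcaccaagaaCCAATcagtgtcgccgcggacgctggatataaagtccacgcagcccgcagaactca
H2-Q6, chr17:35424600-35424899, plus strand: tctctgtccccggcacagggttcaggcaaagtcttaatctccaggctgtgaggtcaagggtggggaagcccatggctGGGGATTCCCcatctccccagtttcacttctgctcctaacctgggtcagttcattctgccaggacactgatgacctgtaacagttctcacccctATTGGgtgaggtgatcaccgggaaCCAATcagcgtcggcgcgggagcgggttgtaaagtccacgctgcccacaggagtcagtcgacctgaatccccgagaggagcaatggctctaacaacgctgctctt
H2-Aa, chr17:34287774-34288073, minus strand: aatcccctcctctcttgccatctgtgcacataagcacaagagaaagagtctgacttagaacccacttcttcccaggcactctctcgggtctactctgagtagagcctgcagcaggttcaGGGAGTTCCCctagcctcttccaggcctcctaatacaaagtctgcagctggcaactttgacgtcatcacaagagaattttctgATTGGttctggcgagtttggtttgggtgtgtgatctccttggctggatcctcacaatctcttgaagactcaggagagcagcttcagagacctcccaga
H2-Eb1, chr17:34305617-34305916, plus strand: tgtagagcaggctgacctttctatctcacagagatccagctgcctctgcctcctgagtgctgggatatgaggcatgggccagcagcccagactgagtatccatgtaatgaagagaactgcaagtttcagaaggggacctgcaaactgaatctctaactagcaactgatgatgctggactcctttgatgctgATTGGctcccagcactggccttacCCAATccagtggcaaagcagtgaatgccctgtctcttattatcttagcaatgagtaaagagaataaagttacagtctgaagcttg

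Windows were held for 26 of the 34 genes and for 32851 starts in all. The NF-kappaB pattern stood in 7 of the 26, H2-K1, H2-D1, H2-Q4, H2-Q6, H2-Q7, B2m and the class II gene H2-Aa, against 4.79% of all windows. The response element core stood in 6 (H2-T22, H2-T23, B2m, Erap1, Psme1 and Ctss) against 3.44% of all windows, and in the B2m window it stood 3 bases ahead of the NF-kappaB match. The Y box stood in 20 of the 26 against 37.4%, in class I and class II genes alike, and the X2 box letters in 6 against 7.4%. H2-K1 and H2-Q6 shared the NF-kappaB letters and a pair of Y boxes on opposite strands, and of these 2 genes only H2-K1 held the exact X2 letters. These matches describe letters in the windows and were not tested as sites. Only the exact letters were sought, so a window without a match may still hold a variant of that element.

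In wild type, RNA of much of the class I pathway and of the immunoproteasome was higher after LPS, and no class II chain passed the test. Of the 34 genes, 19 were higher (4.72% of all genes tested were higher), 1 was lower (3.85% of all genes tested were lower) and 14 did not pass in edgeR's quasi-likelihood test with Benjamini-Hochberg adjustment over all genes at 0.05. The 19 comprised 7 of 11 heavy chains, B2m, 6 of 9 loading and regulator genes, 4 of 5 immunoproteasome genes, 0 of 3 class II chains and 1 of 5 class II machinery genes. The median log2 fold change was 1.62 over the heavy chains and -0.47 over the class II chains, against 0.00 over all genes tested. Without replicate 1 of wild-type LPS 22 were higher and 4 lower, beside 1797 higher and 1583 lower among all genes tested (768 and 626 with it). All 19 higher calls and the lower call held without it, and the median log2 fold change of the 19 was then 1.44, against 1.19 with it. A fit of only the 8 wild-type libraries, which estimates the spread from them alone, called 0 of the 34 in edgeR (smallest adjusted p = 0.0815), with 19 higher and 3 lower at an unadjusted p below 0.05, while DESeq2 over all 16 libraries called 22. The shares of all genes called in these fits are not given here, so their counts show only how the calls depend on the fit.

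**Figure D1:**
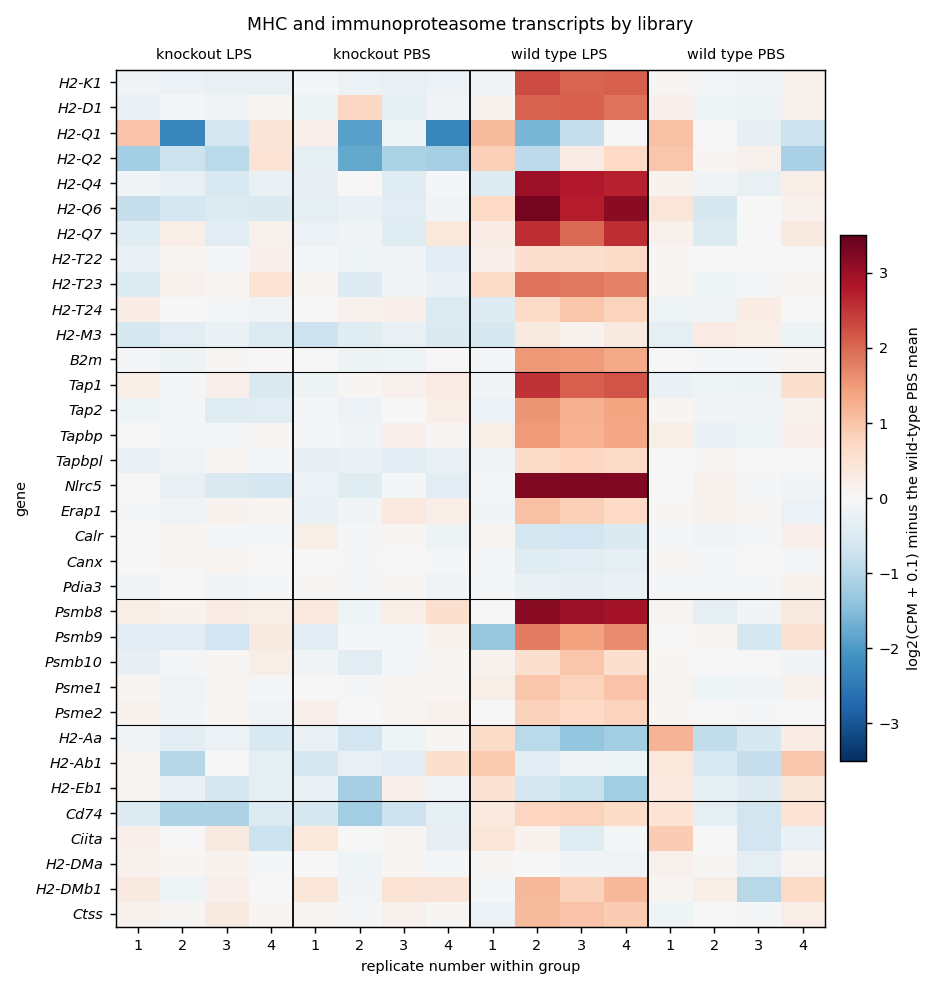
Each row is 1 of the 34 genes, grouped by role between the horizontal lines, and each column 1 library; colour gives log2(CPM + 0.1) minus the mean of the wild-type PBS libraries. Wild-type LPS replicates 2, 3 and 4 stand out as higher in most class I and immunoproteasome rows, and replicate 1 of that group does not. None of the 3 class II chain rows is higher in those libraries. H2-Aa and H2-Eb1 lie below the wild-type PBS range in them, and H2-Ab1 does not.

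H2-K1 (ENSMUSG00000061232; chromosome 17, 33996017 to 34000347, minus strand on GRCm38), a classical heavy chain, stood at 22, 115, 96.5 and 101 CPM in wild-type LPS and 24.2, 22.7, 22 and 25.5 CPM in wild-type PBS. In the knockout it stood at 21.8, 20.4, 19.5 and 19.7 CPM after LPS and 23, 20.6, 19.6 and 20.5 CPM after PBS. Of the 16 libraries only wild-type LPS replicates 2, 3 and 4 exceeded 26 CPM, and replicate 1 lay at the low edge of the wild-type PBS range. The log2 fold change in wild type was 1.83 ± 0.32 (adjusted p = 0.00485) and 2.14 without replicate 1. Within the shared title code, wild-type LPS replicate 1 at 22 CPM lay below wild-type PBS replicate 4 at 25.5 CPM. Of the 34 genes 21 had that order, among them B2m (45.6 against 51.1 CPM) and Psmb8 (1.68 against 2.13 CPM), and 13 had the opposite one, among them H2-T23 (17.2 against 11.6 CPM) and H2-Q6 (1.37 against 0.905 CPM). The order was not counted over all genes tested, so nothing is read from these 2 counts. Knockout PBS replicate 4, which shares the code of wild-type LPS replicates 2, 3 and 4, stood at 20.5 CPM of H2-K1.

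H2-D1, the other classical heavy chain that was measured, had 33.7, 131, 133 and 117 CPM in wild-type LPS and 35.2, 28.3, 27.7 and 34.6 CPM in wild-type PBS. Knockout libraries had 26.2, 29.6, 28.6 and 32.9 CPM after LPS and 27.5, 51.8, 24.8 and 29.1 CPM after PBS. The same 3 wild-type LPS libraries stood above all others, and knockout PBS replicate 2 was the next highest of the 16. The log2 fold change in wild type was 1.72 ± 0.33 (adjusted p = 0.00682), or 2.01 without replicate 1.

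Of the non-classical Q genes, H2-Q4, H2-Q6 and H2-Q7 rose, with log2 fold changes from 2.12 to 2.88. H2-Q6 had 1.37, 9.18, 5.99 and 7.96 CPM in wild-type LPS and 1.10, 0.513, 0.797 and 0.905 CPM in wild-type PBS, and 0.414, 0.488, 0.548 and 0.537 CPM in knockout LPS and 0.617, 0.667, 0.588 and 0.738 CPM in knockout PBS. It was among the 5 of the 34 genes whose 4 wild-type LPS libraries all lay above the 4 wild-type PBS libraries (4.22% of all genes tested did), with H2-T22, H2-T23, Psmb10 and Psme1, and its log2 fold change was 2.88 ± 0.42 (adjusted p = 0.0027). H2-Q7, which encodes a Qa-2 antigen tethered to the membrane by a lipid, had 2.32, 11.9, 7.90 and 11.9 CPM in wild-type LPS and 2.15, 1.33, 1.93 and 2.40 CPM in wild-type PBS (2.12 ± 0.39, adjusted p = 0.00577). In the knockout H2-Q7 had 1.39, 2.24, 1.45 and 2.15 CPM after LPS and 1.64, 1.73, 1.40 and 2.48 CPM after PBS. H2-Q4 spanned 3.54 to 39.9 CPM in wild-type LPS and 4.05 to 5.75 CPM in wild-type PBS (2.48 ± 0.47, adjusted p = 0.00637), its lowest value again being replicate 1. Without replicate 1 the log2 fold changes of H2-Q4, H2-Q6 and H2-Q7 were 2.84, 3.21 and 2.43.

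H2-T23, which encodes the Qa-1 molecule read by NKG2 receptors of natural killer cells, spanned 17.2 to 41.0 CPM in wild-type LPS and 9.80 to 11.6 CPM in wild-type PBS, without overlap (1.62 ± 0.24, adjusted p = 0.0027). H2-T22, a ligand of a set of gamma-delta T cells, spanned 19.6 to 27.5 CPM in wild-type LPS and 17 to 17.9 CPM in wild-type PBS (0.52 ± 0.11, adjusted p = 0.0107). Without replicate 1 H2-T23 had 1.84 and H2-T22 0.61. The 4 heavy chains that did not pass were H2-T24 (0.61 ± 0.26, adjusted p = 0.158), H2-M3, which presents formylated peptides of bacteria and mitochondria (0.07 ± 0.21, 0.883), H2-Q1 (-0.23 ± 0.98, 0.921) and H2-Q2 (0.20 ± 0.64, 0.889). H2-Q1 and H2-Q2 stayed below 1 CPM in every library and were listed at 0 to 0.947 CPM and 0.0303 to 0.783 CPM.

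Heavy chains of the H2 family share sequence, so the split of reads between them is uncertain. The share of 31-base words of a gene's longest coding transcript that also occurred in another gene was 63.3% for H2-T22 (55.8% with H2-T10), 50.3% for H2-Q6, 48.7% for H2-T23, 48.6% for H2-Q7, 43.4% for H2-Q4, 27.5% for H2-D1, 23.3% for H2-K1 and 0% for B2m. With H2-K1, H2-D1 and the H2-Q genes summed to 1 feature and the H2-T genes to another, the log2 fold changes in wild type were 1.85 and 1.03, and that of the H2-K1, H2-D1 and H2-Q sum between knockout and wild type under LPS was -2.02. H2-Q1 alone, which is rare beside its relatives, had the opposite sign to that sum in both comparisons (-0.23 and 0.13) and did not pass.

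B2m (ENSMUSG00000060802; chromosome 2, 122147686 to 122153083, plus strand), the light chain without which class I does not reach the cell surface, had 45.6, 136, 133 and 119 CPM in wild-type LPS and 47.8, 44.9, 46.6 and 51.1 CPM in wild-type PBS. Knockout libraries had 44.9, 42.3, 49.0 and 47.7 CPM after LPS and 47.7, 42.4, 42.6 and 47.1 CPM after PBS. Apart from wild-type LPS replicates 2, 3 and 4, every library lay between 42 and 52 CPM. The log2 fold change in wild type was 1.19 ± 0.23 (adjusted p = 0.00691), or 1.44 without replicate 1. On a scale per kilobase of transcript, which allows levels of different genes to be compared, B2m stood at 126 ± 49.6 CPM per kb in wild-type LPS and 55.3 ± 3.02 in wild-type PBS (mean ± SD, n = 4). H2-K1 stood at 51.7 ± 25.9 and 14.6 ± 0.950 CPM per kb, and H2-D1 at 49.4 ± 22.5 and 14.9 ± 1.89, in the same order, so H2-K1 and H2-D1 did not differ beyond their spread. H2-Aa, a class II chain, stood at 0.699 ± 0.602 CPM per kb in wild-type LPS and 1.19 ± 0.857 in wild-type PBS, the scale on which class II chains were rare in this tissue.

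Nlrc5, the class I transactivator, had the largest log2 fold change of the 34 genes in wild type, 3.01 ± 0.49 (adjusted p = 0.00377). It had 0.855, 9.26, 9.40 and 9.35 CPM in wild-type LPS and 0.899, 0.995, 0.863 and 0.825 CPM in wild-type PBS, and 0.876, 0.731, 0.603 and 0.566 CPM in knockout LPS and 0.759, 0.637, 0.840 and 0.671 CPM in knockout PBS. Replicates 2, 3 and 4 of wild-type LPS lay close together, and the other 13 libraries were all below 1 CPM. Tap1, a subunit of the peptide pump, had 2.69, 17.3, 12.6 and 13.6 CPM in wild-type LPS and 2.47, 2.62, 2.52 and 4.29 CPM in wild-type PBS (1.95 ± 0.39, adjusted p = 0.00906). In the knockout Tap1 had 3.36, 2.73, 3.26 and 2.0 CPM after LPS and 2.56, 3.00, 3.25 and 3.56 CPM after PBS, which overlapped. Without replicate 1 of wild-type LPS the log2 fold changes in wild type were 3.38 for Nlrc5, 2.28 for Tap1, 1.40 for Tap2 and 1.35 for Tapbp.

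Tap2, the partner subunit of the pump, rose by 1.14 ± 0.26, and tapasin (Tapbp), which holds the empty heavy chain at the pump, by 1.14 ± 0.20 (adjusted p = 0.0155 and 0.00455). The tapasin-related editor Tapbpl rose by 0.53 ± 0.15 and Erap1, the peptidase that trims peptides in the endoplasmic reticulum, by 0.68 ± 0.19 (adjusted p = 0.0381 and 0.0379). Both of these calls were lost on leaving out any 1 of 7 wild-type libraries, all but LPS replicate 1, with log2 fold changes then between 0.45 and 0.55 for Tapbpl and between 0.54 and 0.73 for Erap1. The call of Tap2 was lost without wild-type PBS replicate 3 (1.11). Among the general chaperones of the loading complex, Canx (calnexin) was lower after LPS, at 317, 246.3, 255 and 261 CPM in wild-type LPS and 342, 322, 337 and 323 CPM in wild-type PBS (-0.30 ± 0.07, adjusted p = 0.0144), without overlap of the groups, and was the only member of which that held in the downward direction (4.41% of all genes tested). Its call was lost without wild-type LPS replicate 3 (-0.26). Calr (calreticulin) and Pdia3 (the disulfide isomerase ERp57) had -0.40 ± 0.14 and -0.20 ± 0.06 (adjusted p = 0.0918 and 0.0584), and both passed without LPS replicate 1 (-0.60 and -0.26).

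Psmb8, the inducible counterpart of the chymotrypsin-like subunit Psmb5, had 1.68, 16, 14.4 and 13.5 CPM in wild-type LPS and 1.83, 1.36, 1.59 and 2.13 CPM in wild-type PBS. Its knockout values were 1.97, 1.85, 2.06 and 1.97 CPM after LPS and 2.21, 1.52, 2.02 and 2.58 CPM after PBS. Replicates 2, 3 and 4 of wild-type LPS were the only libraries above 3 CPM, and the log2 fold change in wild type was 2.72 ± 0.46 (adjusted p = 0.00415). Psmb9, which replaces the caspase-like subunit Psmb6, had 0.366, 3.96, 3.00 and 3.52 CPM in wild-type LPS and 1.07, 1.12, 0.664 and 1.57 CPM in wild-type PBS. LPS replicate 1 was the lowest of all 16 libraries, the groups overlapped, and Psmb9 did not pass (1.29 ± 0.48, adjusted p = 0.11; 1.65 and adjusted p = 0.000604 without replicate 1). In the knockout Psmb9 had 0.803, 0.804, 0.631 and 1.34 CPM after LPS and 0.807, 1.0, 1.01 and 1.17 CPM after PBS.

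Psmb10, the inducible partner of the trypsin-like subunit Psmb7, was the most abundant of the 3 at rest, with 18.7, 24.9, 33.2 and 25.4 CPM in wild-type LPS and 17.7, 16.9, 17.3 and 16 CPM in wild-type PBS (0.59 ± 0.15, adjusted p = 0.0231). Its groups did not overlap in wild type, and they did in the knockout, at 13.9, 16.4, 17.6 and 19.6 CPM after LPS and 15.7, 12.9, 16.6 and 17.3 CPM after PBS. The wild-type call was lost on leaving out LPS replicate 3 or 4 or PBS replicate 2 or 3 (log2 fold changes between 0.44 and 0.60). Psme1 and Psme2, the subunits of the proteasome activator PA28, rose by 0.76 ± 0.13 and 0.60 ± 0.13 (adjusted p = 0.00463 and 0.0145); 66.2% of the words of Psme2 also occurred in Psme2b. Without LPS replicate 1 the log2 fold changes were 3.08 for Psmb8, 0.71 for Psmb10, 0.91 for Psme1 and 0.76 for Psme2.

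The share of each catalytic pair held by the inducible subunit, with counts divided by transcript length, is a description without a test. Psmb8 made up 1.34, 9.32, 9.56 and 8.95% of Psmb8 and Psmb5 in wild-type LPS and 1.39, 0.965, 1.25 and 1.46% in wild-type PBS. Psmb9 made up 0.397, 3.95, 3.2 and 3.40% of Psmb9 and Psmb6 in wild-type LPS and 1.24, 1.16, 0.770 and 1.61% in wild-type PBS. Psmb10 made up 18.4, 20.5, 25.4 and 20.2% of Psmb10 and Psmb7 in wild-type LPS and 16.7, 15.5, 16 and 15.9% in wild-type PBS. Replicates 2, 3 and 4 of wild-type LPS thus stood above every wild-type PBS library in each pair, by a larger ratio for Psmb8 than for Psmb10. Knockout libraries had Psmb8 shares of 1.5, 1.37, 1.42 and 1.64% after LPS and 1.51, 1.06, 1.53 and 1.71% after PBS, which overlapped. Of 8 constitutive proteasome and activator genes 0 passed in wild type in edgeR, with a median log2 fold change of 0.07.

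**Figure D2:**
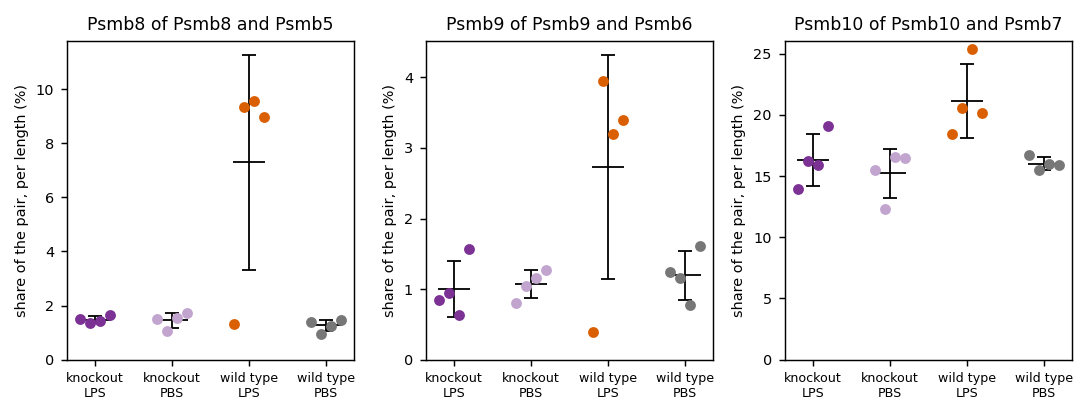
Share of each catalytic pair held by the inducible subunit, in percent of counts per transcript length, for the 4 libraries of each group (points); horizontal lines are means and bars SDs. In wild-type LPS 3 of the 4 points of the Psmb8 and Psmb9 panels lie far above all other libraries and 1 lies within or below the range of the wild-type PBS points.

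The class II chains behaved differently. H2-Aa, the alpha chain of the H2-A molecule, had 1.80, 0.540, 0.382 and 0.431 CPM in wild-type LPS and 2.70, 0.573, 0.730 and 1.36 CPM in wild-type PBS, with 1.05, 0.853, 0.960 and 0.745 CPM in knockout LPS and 0.949, 0.667, 1.01 and 1.17 CPM in knockout PBS. Replicate 1 of wild-type LPS and replicates 1 and 4 of wild-type PBS were the highest of the 16, and replicates 2, 3 and 4 of wild-type LPS were the lowest. The change of -0.78 ± 0.50 did not pass (adjusted p = 0.369). Without replicate 1, the highest of its group, H2-Aa had -1.56 (adjusted p = 0.0222), in a fit that omits a library picked from these same genes.

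H2-Ab1, the beta chain of that molecule, had 1.65, 0.60, 0.764 and 0.735 CPM in wild-type LPS and 1.10, 0.543, 0.432 and 1.68 CPM in wild-type PBS (-0.03 ± 0.45, adjusted p = 0.983). Its knockout values were 0.876, 0.366, 0.822 and 0.626 CPM after LPS and 0.522, 0.667, 0.616 and 1.27 CPM after PBS. Here too the highest libraries were wild-type PBS replicate 4 and wild-type LPS replicate 1. H2-Eb1, the beta chain of the H2-E molecule, had 1.56, 0.680, 0.587 and 0.405 CPM in wild-type LPS and 1.39, 0.844, 0.764 and 1.44 CPM in wild-type PBS (-0.47 ± 0.40, adjusted p = 0.508; -0.99 and adjusted p = 0.062 without replicate 1). In the knockout H2-Eb1 had 1.14, 0.902, 0.658 and 0.835 CPM after LPS and 0.902, 0.425, 1.23 and 0.973 CPM after PBS. At these levels SEs ran from 0.40 to 0.50 on the log2 scale. Psmb9, with a like SE in the same comparison, did not pass at 1.29 ± 0.48. Changes of that size in the class II chains could therefore be missed.

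Set side by side, the 11 class I heavy chains summed to 104, 380.1, 350.1 and 341 CPM in wild-type LPS and 102, 89.3, 89.4 and 102 CPM in wild-type PBS. The 3 class II chains summed to 5.01, 1.82, 1.73 and 1.57 CPM in wild-type LPS and 5.19, 1.96, 1.93 and 4.47 CPM in wild-type PBS. In the 3 wild-type LPS libraries with the highest class I sums the class II sum was below that of every wild-type PBS library. Knockout sums of class I were 81.5, 90.7, 85.3 and 98.0 CPM after LPS and 88.4, 107, 80.4 and 82.8 CPM after PBS, and those of class II were 3.06, 2.12, 2.44 and 2.21 CPM after LPS and 2.37, 1.76, 2.86 and 3.42 CPM after PBS. The 6 choroid plexus markers summed to 13.9 CPM in wild-type LPS replicate 1 and to 11.1 and 3396 CPM in wild-type PBS replicates 1 and 4, the 2 lowest sums and the highest of the 16 libraries. The part of tissue makeup in the class II values was not tested.

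**Figure D3:**
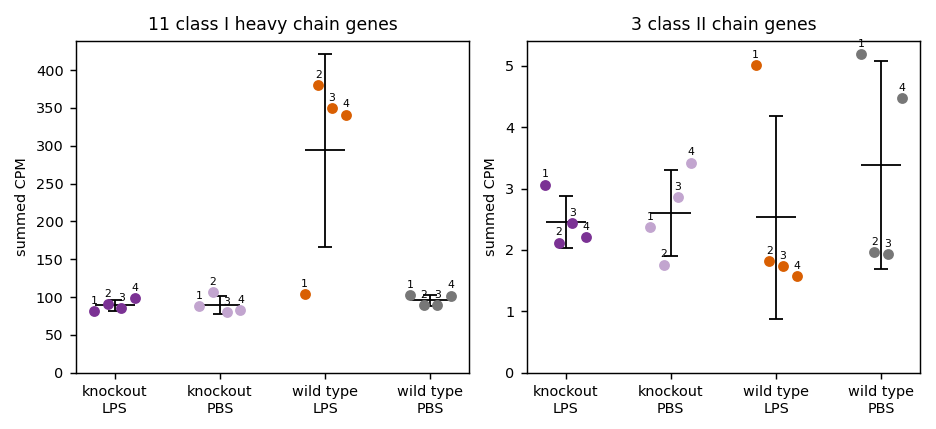
Summed CPM of the 11 class I heavy chain genes and of the 3 class II chain genes in each library (points, numbered by replicate); horizontal lines are group means and bars SDs, n = 4. Class I separates wild-type LPS replicates 2, 3 and 4 from all other libraries. Class II is low in those same 3 libraries and high in wild-type LPS replicate 1 and wild-type PBS replicates 1 and 4. Knockout PBS replicate 2 and wild-type PBS replicates 2 and 3 are about as low in class II (1.76, 1.96 and 1.93 CPM), so class II does not set the 3 libraries apart.

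The class II machinery did not follow its chains uniformly. Ciita, the class II transactivator, had 0.397, 0.300, 0.176 and 0.253 CPM in wild-type LPS and 0.580, 0.271, 0.133 and 0.213 CPM in wild-type PBS (-0.10 ± 0.43, adjusted p = 0.925). Knockout libraries held 0.316, 0.268, 0.356 and 0.119 CPM of it after LPS and 0.380, 0.273, 0.280 and 0.201 CPM after PBS, and all 4 groups overlapped. Cd74, the invariant chain that guides class II to the lysosome, had 3.94, 5.34, 5.40 and 4.94 CPM in wild-type LPS and 4.41, 2.47, 1.96 and 4.34 CPM in wild-type PBS (0.57 ± 0.27, adjusted p = 0.204). Its knockout values were 2.26, 1.41, 1.43 and 2.21 CPM after LPS and 2.09, 1.27, 1.85 and 2.48 CPM after PBS. The wild-type groups overlapped, and replicates 2, 3 and 4 of wild-type LPS, low in class II chains, were the highest of the 16 in Cd74.

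The peptide exchangers H2-DMa and H2-DMb1 had -0.05 ± 0.10 and 0.75 ± 0.33 (adjusted p = 0.794 and 0.169); H2-DMb1 passed without LPS replicate 1 (0.96, adjusted p = 0.0343) and shared 37.6% of its words with H2-DMb2. Ctss, the lysosomal protease that cuts the invariant chain and is abundant in microglia, was the only machinery gene that rose (0.78 ± 0.20, adjusted p = 0.0254). It spanned 35.1 to 88.8 CPM in wild-type LPS and 36.7 to 47.6 CPM in wild-type PBS, and its call was lost on leaving out any 1 of 6 wild-type libraries, all but LPS replicate 1 and PBS replicate 4 (log2 fold changes between 0.65 and 0.79), while without LPS replicate 1 its log2 fold change was 1.0.

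Markers of neutrophils and monocytes were high in wild-type LPS replicates 2, 3 and 4. The 4 neutrophil genes in the table summed to 0.641, 9.88, 9.19 and 14.3 CPM in wild-type LPS and 0.609, 0.362, 0.232 and 0.240 CPM in wild-type PBS, and to 0.0973 to 1.62 CPM in knockout LPS and 0.0560 to 0.364 CPM in knockout PBS, and S100a8, S100a9 and Ngp passed as higher in wild-type LPS. The 4 monocyte markers summed to 1.68, 3.60, 3.64 and 4.51 CPM in wild-type LPS and 1.54, 1.33, 1.33 and 0.879 CPM in wild-type PBS, and to 0.603 to 1.56 CPM in knockout LPS and 0.952 to 1.42 CPM in knockout PBS; of the 2 that could be tested, Ly6c2 was lower in knockout than in wild type under LPS (-1.16 ± 0.35, adjusted p = 0.0458) and neither passed in wild type. The 6 markers of border macrophages, which can hold class II, summed to 4.92 to 6.98 CPM in knockout LPS, 7.08 to 8.67 CPM in wild-type LPS and 3.35 to 5.89 CPM in wild-type PBS, and 2 of the 6 (Cd163 and Lyve1) were higher in wild-type LPS than in wild-type PBS. Border macrophage markers summed to 4.95 to 6.37 CPM in knockout PBS, and 2 of the 6 were lower in knockout than in wild type under LPS. The 6 dendritic cell markers summed to 19.2 to 24.5 CPM in wild-type LPS and 18.1 to 28.5 CPM in wild-type PBS, almost wholly Flt3 and Zbtb46, while Xcr1, Clec9a, Cd209a and Itgax were each below 0.5 CPM in every library. B cell genes summed to at most 1.31 CPM and T and NK cell genes to at most 0.358 CPM in any library. Of 4 oligodendrocyte markers 3 were lower in wild-type LPS, the 4 summing to 3240, 5791, 3383 and 2436 CPM there and 5203 to 6820.3 CPM in wild-type PBS. Here replicate 1 was among the low libraries and replicate 2 lay inside the wild-type PBS range. The sums were 5348 to 5748 CPM in knockout LPS and 5035 to 6217 CPM in knockout PBS, and 3 of the 4 were higher in knockout than in wild type under LPS. The part of any of these cells in the changes of the 34 genes was not tested.

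In the knockout, LPS moved none of the 34 genes past the threshold: 0 were higher and 0 lower (0% of all genes tested in either direction). At an unadjusted p below 0.05 edgeR called 0 of the 34 and 1120 of all genes, and DESeq2 and limma-voom also called 0 of the 34 after adjustment. The median log2 fold change was 0.04 over the heavy chains, -0.08 over the immunoproteasome genes and -0.07 over the class II chains. H2-K1 had -0.04 ± 0.32, B2m 0.03 ± 0.23, Nlrc5 -0.06 ± 0.51, Psmb8 -0.08 ± 0.45 and H2-Aa -0.07 ± 0.51. H2-Q6 was the only member whose knockout groups did not overlap, LPS lying below PBS (3.51% of all genes tested did so, and 3.04% had LPS wholly above), and its difference of -0.39 ± 0.45 did not pass (adjusted p = 0.83).

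**Figure D4:**
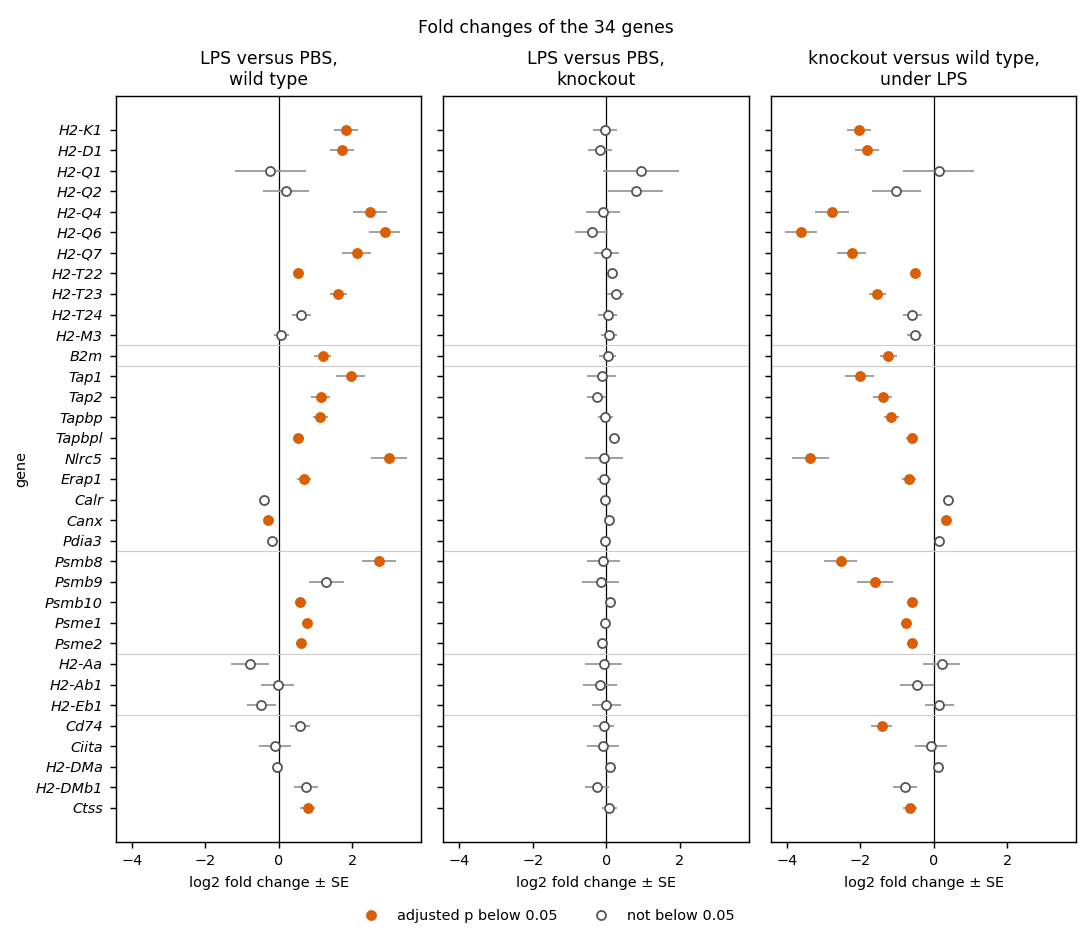
Log2 fold change ± SE of the 34 genes from the fit over all 16 libraries, with genes grouped by role between the grey lines; filled points passed an adjusted p of 0.05. Most class I and immunoproteasome genes lie right of 0 for LPS against PBS in wild type, around 0 for LPS against PBS in the knockout, and left of 0 for knockout against wild type under LPS.

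Between knockout and wild type under PBS 0 of the 34 passed in either direction (0.0307% of all genes tested were higher and 0.00615% lower), with 3 lower and 0 higher at an unadjusted p below 0.05 in edgeR, where 841 of the 16269 genes tested passed in either direction, and 0 after adjustment in DESeq2 and limma-voom. Cd74 had the smallest of these p-values, with 2.09, 1.27, 1.85 and 2.48 CPM in knockout PBS and 4.41, 2.47, 1.96 and 4.34 CPM in wild-type PBS (-0.78 ± 0.27, adjusted p = 0.918). The groups overlapped. The others were H2-M3 (-0.52 ± 0.21) and H2-Q2 (-1.62 ± 0.73, adjusted p = 0.918 for both). H2-T22 and Tapbpl were lower in every knockout than in any wild-type PBS library (1.82% of all genes tested were), with log2 fold changes of -0.17 and -0.30, and did not pass. Leaving out the library labelled knockout PBS replicate 1 also gave 0 in either direction, here and for LPS in the knockout.

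Under LPS, the knockout had less class I and immunoproteasome RNA than the wild type. This comparison uses the same wild-type LPS libraries as that within wild type, so the values are set side by side and are not separate evidence. Of the 34 genes 21 were lower (7.28% of all genes tested were lower) and 1 was higher (4.61% were higher): 7 of 11 heavy chains, B2m, 6 of 9 loading and regulator genes, 5 of 5 immunoproteasome genes, 0 of 3 class II chains and 2 of 5 class II machinery genes were lower, and Canx was higher. Without wild-type LPS replicate 1, 24 were lower and 3 higher, beside 2203 lower and 1802 higher among all genes tested (1185 and 750 with it). All 21 lower calls and the higher call held without it, with a median of -1.66 over the 21, against -1.43 with it. A fit of only the 8 LPS libraries called 10 lower and 0 higher. The share of all genes called in that fit is not given here, so these counts show only how the calls depend on the fit.

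H2-K1 had 21.8, 20.4, 19.5 and 19.7 CPM in knockout LPS against 22, 115, 96.5 and 101 CPM in wild-type LPS, a log2 fold change of -2.04 ± 0.33 (adjusted p = 0.00328). Every knockout library lay below every wild-type one, though the gap to wild-type replicate 1 was only 21.8 against 22 CPM. H2-Q6 differed most (-3.62 ± 0.44, adjusted p = 0.00308), at 0.414 to 0.548 CPM in knockout LPS and 1.37 to 9.18 CPM in wild-type LPS. Nlrc5 followed (-3.37 ± 0.50, adjusted p = 0.00308), with 0.876 CPM in knockout replicate 1 above 0.855 CPM in wild-type replicate 1. Psmb8 was lower by 2.54 ± 0.45 on the log2 scale and B2m by 1.24 ± 0.23. Psmb9 passed here (-1.61 ± 0.49, adjusted p = 0.0443), a call lost on leaving out any 1 of 12 libraries, all but knockout LPS replicate 4, wild-type LPS replicate 1 and wild-type PBS replicates 3 and 4 (log2 fold changes between -1.61 and -1.37).

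Of the 34 genes 9 had every knockout LPS library below every wild-type LPS library: H2-K1, H2-D1, H2-Q6, H2-Q7, H2-T22, H2-T23, Tapbp, Psme1 and Cd74 (6.98% of all genes tested did). Canx lay wholly above, at 329.9 to 355 CPM in knockout LPS and 246.3 to 317 CPM in wild-type LPS (7.35% of all genes tested did; 0.33 ± 0.07, adjusted p = 0.00721). For Cd74, replicate 1 of wild-type LPS was the lowest of its group and lay inside the wild-type PBS range, but above every knockout LPS library. Cd74 had 2.26, 1.41, 1.43 and 2.21 CPM in knockout LPS against 3.94, 5.34, 5.40 and 4.94 CPM in wild-type LPS (-1.43 ± 0.27, adjusted p = 0.00608). All 4 wild-type libraries lay above all 4 knockout libraries, and the value without wild-type replicate 1 was -1.51. The call of Cd74 held in each of the 25 other settings that gave it a value. The class II chains showed no matching difference, with H2-Aa at 0.21 ± 0.51, H2-Ab1 at -0.47 ± 0.46 and H2-Eb1 at 0.15 ± 0.40 (adjusted p = 0.824, 0.541 and 0.848). Ctss was lower (-0.65 ± 0.20, adjusted p = 0.0464), but leaving out any 1 of 14 libraries, all but wild-type LPS replicate 1 and wild-type PBS replicate 4, ended that call (log2 fold changes between -0.71 and -0.52). The same happened to Erap1 (-0.68 ± 0.19) for each of the 4 knockout LPS libraries and for wild-type LPS replicates 2, 3 and 4 (between -0.72 and -0.53), to Tapbpl (-0.61 ± 0.15) for wild-type LPS replicates 3 and 4 (-0.53 and -0.55) and to Psmb10 (-0.60 ± 0.15) for wild-type LPS replicate 3 (-0.45).

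Whether the LPS effect itself differed between the genotypes is asked by the interaction, the log2 change with LPS in the knockout minus that in wild type. It was lower in 3 of the 34 genes (0.596% of all genes tested were) and higher in 0 (0.553% were). H2-Q6 had -3.27 ± 0.61 (adjusted p = 0.0432), Nlrc5 -3.07 ± 0.71 and Psmb8 -2.80 ± 0.64 (adjusted p = 0.04997 for both). At an unadjusted p below 0.05 the interaction was below 0 in 16 further members and above 0 in 1, and 3520 of the 16269 genes tested passed that level in either direction. Among the 16 were H2-K1 (-1.87 ± 0.45, adjusted p = 0.0543), H2-D1 (-1.91 ± 0.46, 0.0536) and B2m (-1.16 ± 0.32, 0.0723). H2-Aa, with 0.71 ± 0.71 (adjusted p = 0.592), did not pass, nor did the other class II chains. The count moved with single libraries. Leaving out wild-type LPS replicate 1 gave 21 lower and 2 higher (1465 and 1190 among all genes tested, against 97 and 90 with all libraries), leaving out wild-type PBS replicate 4 gave 12 lower and 1 higher (481 and 466 among all genes), leaving out wild-type PBS replicate 1 gave 1 lower, and leaving out any 1 of the other 13 gave 0. DESeq2 called 14 lower and 1 higher (735 and 543 among all genes). RLE scaling, no filter and the CPM filter each gave 1 lower, and the replicate block gave 0.

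Other genes of the pathway were listed with earlier results known. Of 18 regulators 4 were higher in wild-type LPS than in wild-type PBS, among them the interferon regulatory factors Irf1 (1.05 ± 0.24), Irf8 (0.61 ± 0.14) and Irf9 (0.88 ± 0.21). Irf1 and Irf9 were lower in knockout LPS than in wild-type LPS (-1.15 ± 0.24 and -1.09 ± 0.22). Rfx5, Rfxank and Rfxap, the subunits of the RFX complex that binds class I and class II promoters, passed in neither comparison. Of 8 other class I and class I-like genes tested only H2-T10 was higher in wild type (1.34 ± 0.23), and its interaction passed as well (-1.72 ± 0.32, adjusted p = 0.0432). Between knockout and wild type under LPS, H2-T10 (-0.85 ± 0.22) and H2-K2 (-0.87 ± 0.25) were lower. The interaction of H2-T10 exceeded in size its difference between the genotypes under LPS, so part of it lay between the genotypes under PBS. Of the words of H2-T22, 55.8% also occurred in H2-T10, so the split of reads between these genes is uncertain.

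Of 14 other class II and lysosomal genes tested, the lysosomal proteases Ctsl (0.61 ± 0.15) and Ctsz (0.67 ± 0.18) were higher in wild-type LPS. Under LPS the knockout was lower in Ctsl (-0.61 ± 0.15), Ctsz (-0.68 ± 0.18) and Ctsh (-0.69 ± 0.20) and higher in H2-Ob (1.48 ± 0.46), a chain of the molecule that restrains H2-DM, which stayed below 0.6 CPM in every library. Of 8 constitutive proteasome genes 1, Psma7, was lower (-0.16 ± 0.04). Of 6 loading helpers 0 passed in either comparison.

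The members that changed lay both inside and outside the stretch of chromosome 17. Of the 21 there, 11 were higher and 0 lower in wild-type LPS, and of the 13 on other chromosomes 8 were higher and 1 lower. The genes Tap1 and Psmb9 overlap by 212 bases on opposite strands in the annotation, and 10 of the 34 overlap another protein-coding gene, among them B2m, which lies wholly within Patl2 on the opposite strand. No source used here states the strand setting of the counting, so values of such genes are uncertain in these stretches.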

How the data were processed

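The authors deposited gene-level counts for 16 hippocampal libraries; Salmon 1.9.0, MultiQC 1.13, DESeq and DESeq2 are named in the submitters' processing notes, and the build they used was not given in the sources used here. The deposited counts are whole numbers; the smallest sum of a gene over all libraries was 10. Symbols and coordinates came from GENCODE M21 (GRCm38), which lacked 105 identifiers (0.0537% of counts), and start regions from RefSeq on GRCm38.p6.

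From the counts, edgeR 4.0.16 (R 4.3.3) removed 3180 genes by filterByExpr, leaving 16269 with 99.97% of counts, and fitted quasi-likelihood models with TMM scaling over all 16 libraries in 4 groups, without a replicate block. Contrasts were adjusted by Benjamini-Hochberg over all genes tested at 0.05; SEs are the size of the log2 fold change over the root of F, and the biological coefficient of variation was 0.177. CPM are counts per 1000000 of the TMM-scaled library size. Alternatives were DESeq2 1.42.0, limma 3.58.1 (voom), other scalings and filters, a replicate block, fits of the 8 libraries compared, summed H2 genes and each library left out; 2 more were chosen after seeing the data.

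The members, gene lists and motifs were chosen with earlier results of these data known. All 34 members are accounted for; library values are given for a fixed set of them and for members past the threshold in the interaction, and other genes of the pathway are named where they passed under LPS, except 1 regulator and 1 motif that are not reported here. Most same-numbered libraries did not vary together (24 pairs, 2 with a correlation above 0.1, range -0.232 to 0.364), so the numbers were not taken as pairs. The highest value, 0.364, was that of wild-type PBS replicate 1 with wild-type LPS replicate 1.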

Additional observations from a re-analysis of the deposited data

Results flagged for a closer look

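Within the 4 libraries of a group, 13 of 140 sets of values held a library far from the other 3 by Dixon's 95% criterion (its gap to the nearest library over the range of the group), where chance flags about 1 in 20. Wild-type LPS replicate 1 was that library in 7 sets: it was the lowest for H2-D1 (33.7 CPM), Tapbpl (5.89 CPM), Nlrc5 (0.855 CPM) and Psme2 (15.5 CPM) and the highest for Calr (392 CPM), H2-Aa (1.80 CPM) and H2-Ab1 (1.65 CPM).

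Knockout PBS replicate 2 was the highest of its group for H2-D1 (51.8 CPM) and the lowest for H2-DMb1 (0.940 CPM). Wild-type PBS replicate 4 was the highest for Tap1 (4.29 CPM) and Pdia3 (196 CPM), and knockout LPS replicate 4 for H2-Q2 (0.537 CPM). Tspo in the library labelled knockout PBS replicate 1 (2.33 CPM) was far above the other 3 of its group.

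The LPS effect differed between the genotypes by the test of the interaction for H2-Q6 (-3.27), Nlrc5 (-3.07) and Psmb8 (-2.80, all log2). These calls were close to the threshold. That of H2-Q6 was lost on leaving out any 1 of 13 libraries, and those of Nlrc5 and Psmb8 on leaving out any 1 of 14.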

How the results depend on the processing

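The 34 genes in wild type after LPS (19 higher, 1 lower) and between the genotypes under LPS (21 lower, 1 higher) kept their counts within 1.5 times under another scaling, other filters and the replicate block. Calls among all genes also moved between settings and are not repeated here, so the counts of members here and below describe stability only. In wild type the lower count was 3 with DESeq2, 3 with limma-voom, 0 with only the 8 libraries compared and 4 without wild-type LPS replicate 1 and knockout PBS replicate 1 together, and the higher count was 0 with only the 8 libraries; the cause was not tested. Under LPS the higher count was 2 with DESeq2, 3 with limma-voom, 0 with only the 8 libraries and 3 without both libraries, and the lower count was 10 with only the 8. The interaction (3 lower, 0 higher) was the least stable count: 1 lower with RLE scaling, with no filter and with the CPM filter, 14 with DESeq2, 22 with limma-voom, 0 with the replicate block, 19 without both libraries and 0 with wild-type PBS replicates 2 and 3 summed (tried because they were the closest pair of a group; this setting gave 15 higher in wild type), and 1, 2 and 3 higher with DESeq2, with limma-voom and without both libraries. The replicate block changed no other count of calls by over 1.5 times; the count in wild type under it was 18 higher and that between the genotypes under LPS 19 lower.

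Leaving out 1 library at a time gave 14 to 22 higher and 0 to 4 lower in wild type, 16 to 24 lower and 1 to 3 higher between the genotypes under LPS, and 0 to 21 lower and 0 to 2 higher for the interaction. The log2 ratio of the class I heavy chain sums ran from 1.47 to 1.9 in wild type and from -2.01 to -1.58 between the genotypes under LPS, and that of the class II chain sums from -0.99 to -0.14 and from -0.22 to 0.52. Mean shares in wild-type LPS ran from 6.53% to 9.28% (Psmb8), 2.33% to 3.51% (Psmb9) and 19.7% to 22% (Psmb10); without length correction Psmb8 was at 12.3% and Psmb9 at 4.52%. Tspo ran from 1.25 to 1.83 in wild type after LPS, from -1.62 to 0.18 in the knockout, from -3.37 to -1.52 between genotypes under PBS and from -4.94 to -4.44 under LPS; it passed in wild type with limma-voom (1.91), without wild-type LPS replicate 1 alone (1.76), without knockout PBS replicate 1 alone (1.46) and without both (1.76), and under PBS without both (-3.37). Of 4367 gene values recomputed, 4083 kept direction and call, 160 lost the call, 122 gained it and 2 reversed: H2-Q1, at 1.85 in wild type and -2.02 under LPS when counted in the summed H2-K1, H2-D1 and H2-Q feature. Counts of members under that summing are not given, since several members become 1 feature. Depth limits H2-Q1 and H2-Q2, which have the largest SEs, and the class II chains and Ciita, all below 3 CPM.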
